A study of Mus musculus with 6 samples.

Results

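DNAM-1 (Cd226), TIGIT (Tigit), CD96 (Cd96) and CRTAM (Crtam) are immunoglobulin-superfamily receptors of NK cells and T cells that bind nectins and nectin-like proteins on other cells. These 4 genes were taken by gene symbol from 21442 named genes on the array. Together they were covered by 44 exon-level probe sets, namely 12 for Cd226, 4 for Tigit, 17 for Cd96 and 11 for Crtam. They were measured in NK cells from C57BL/6 spleens that were depleted of T cells with an antibody to Thy1.2 and complement, and kept for 7 days in 1000 IU of interleukin-2 before sorting. The labels give the strain once as C57BL/6 and once as C57BL/5. Both subsets were sorted as CD3-negative and CD122-positive. One subset, called Ly49C/I+, carried Ly49C or Ly49I without Ly49G2. The other, called Ly49G2+, carried Ly49G2 without Ly49C or Ly49I. Each subset had 3 arrays, a number that limits the precision. No label says that replicates were different animals or cultures, and the p-values then cover variation among these arrays, part of which may be technical. Since the sorted cells were measured in bulk, fewer cells expressing a gene and less RNA per cell cannot be told apart.

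DNAM-1 activates NK cells on binding PVR (CD155) or nectin-2, and it acts together with the integrin LFA-1. TIGIT binds the same ligands and inhibits through its cytoplasmic tail, whereas CD96 competes for PVR and in mice is regarded mainly as inhibitory. CRTAM appears on activated NK and CD8 T cells and binds the nectin-like protein encoded by Cadm1.

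Array medians over all probe sets ranged from 7.73 to 7.75 (log2 signal). Klra9, the gene of Ly49I, checks the Ly49C/I side of the sort, with 11.48 to 11.81 on Ly49C/I+ arrays and 9.46 to 9.78 on Ly49G2+ arrays. Klra3, the gene of Ly49C, differed less, with 10.80 to 10.94 on Ly49C/I+ arrays and 9.89 to 10.16 on Ly49G2+ arrays. The gene of Ly49G2 is not reported here. Ly49G2+ replicate 1 is given the name of the Ly49C/I+ subset in its source label, against its title, and its Klra9 value of 9.78 lay with the other Ly49G2+ arrays. Ly49G2+ replicate 2 stood apart from its group, at 9.11 on the second principal component of all genes, against -5.92 and -7.10 for the other Ly49G2+ arrays. The cell type label was checked with 8 NK markers, among them Ncr1, Klrb1c, Nkg7 and Eomes, whose mean signal was 11.82 to 11.89 on Ly49C/I+ arrays and 11.78 to 11.82 on Ly49G2+ arrays. Of the 8, 1 was called higher in Ly49C/I+ cells (Klrk1, the gene of the activating receptor NKG2D, 0.21 ± 0.052, SE, limma adjusted p = 0.0302), against 6.16% of all genes called higher there, and 0 in Ly49G2+ cells, also at an unadjusted limma p under 0.05.

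The comparison asked whether NK cells that differ in their Ly49 receptors also differ in the 4 nectin-binding receptors. Crtam was lower in Ly49C/I+ cells than in Ly49G2+ cells, and it was the only one of the 4 genes to pass the test. Cd226 had the opposite sign, with a difference of similar size that did not pass. Tigit differed by 1.10-fold toward Ly49G2+ cells without passing, and Cd96 had nearly the same mean in both subsets. Differences are log2 values, Ly49C/I+ minus Ly49G2+, tested with limma over all genes at an adjusted p of 0.05. Thus 0 of the 4 genes were called higher in Ly49C/I+ cells, against 6.16% of all genes, and 1 of 4 was called higher in Ly49G2+ cells, against 3.72% of all genes. At an unadjusted limma p under 0.05, 1 of the 4 (Cd226) was higher in Ly49C/I+ cells and 2 (Crtam and Tigit) were higher in Ly49G2+ cells, against 23% of all genes in either direction.

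**Figure D1:**
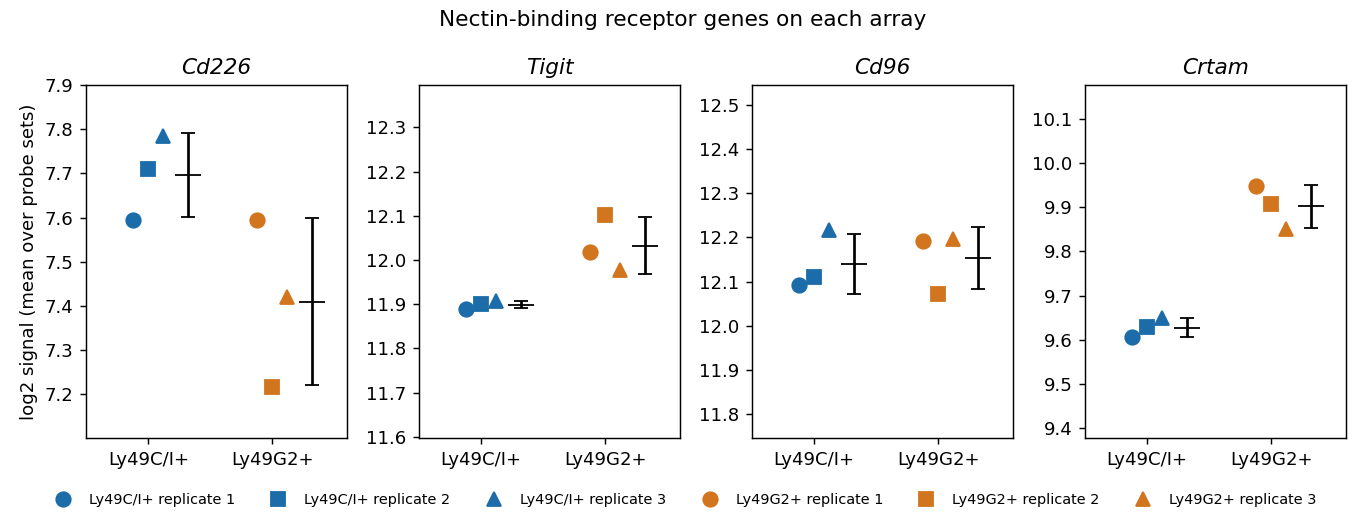
Log2 signal of each receptor gene (vertical axis, mean over its probe sets, the same span of 0.8 in every panel) on the 3 Ly49C/I+ arrays (left in each panel) and the 3 Ly49G2+ arrays (right); markers are arrays and black bars are the mean ± SD. Crtam separates the subsets with a gap of 0.20, Cd226 points nearly touch, and Cd96 points overlap.

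Crtam had log2 signals of 9.61, 9.63 and 9.65 in Ly49C/I+ replicates 1 to 3, against 9.95, 9.91 and 9.85 in the Ly49G2+ replicates. Every Ly49C/I+ array lay below every Ly49G2+ array, with a gap of 0.20 between the nearest values. The mean was 9.63 ± 0.022 in Ly49C/I+ cells, against 9.90 ± 0.049 in Ly49G2+ cells (SD, n = 3 each). The difference was -0.27 ± 0.045 (SE, 95% confidence interval -0.37 to -0.17), or 1.21-fold higher in Ly49G2+ cells, with a limma adjusted p of 0.00388. The exact permutation p was 0.1, the smallest possible here, and Cd226 and Tigit had the same value. The Crtam difference was -0.25 without Ly49G2+ replicate 1 and -0.27 without Ly49G2+ replicate 2, and passed in both (limma adjusted p = 0.0206 and 0.00913). In absolute size it exceeded the differences of 94.9% of all genes. The authors' deposited table gives Crtam group means of 9.62 in Ly49C/I+ cells, against 9.91 in Ly49G2+ cells, with p = 0.00222. Adjusted here over the named entries of that table, this p became 0.0472.

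All 11 probe sets of Crtam had a lower mean in Ly49C/I+ cells, with differences between -0.46 and -0.15. In 7 of the 11 every Ly49C/I+ array lay below every Ly49G2+ array, which was the case in 8.47% of all probe sets. The brightest probe set of Crtam, the seventh by ID, read 11.63, 11.80 and 11.65 in Ly49C/I+ cells, against 11.97, 11.95 and 11.97 in Ly49G2+ cells. The sixth was the least steady, with 9.40, 7.87 and 9.04 in Ly49C/I+ cells, against 9.49, 9.84 and 8.36 in Ly49G2+ cells, so that the subsets overlapped there. Taken singly, 0 of the 44 probe sets of the 4 genes passed limma over all probe sets, where 0.0261% of 241383 passed in all. At an unadjusted limma p under 0.05 there were 5 Crtam probe sets, all higher in Ly49G2+ cells, against 5.24% of all probe sets in that direction. With the median of the probe sets in place of their mean the Crtam difference was -0.25 and did not pass (limma adjusted p = 0.190).

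**Figure D2:**
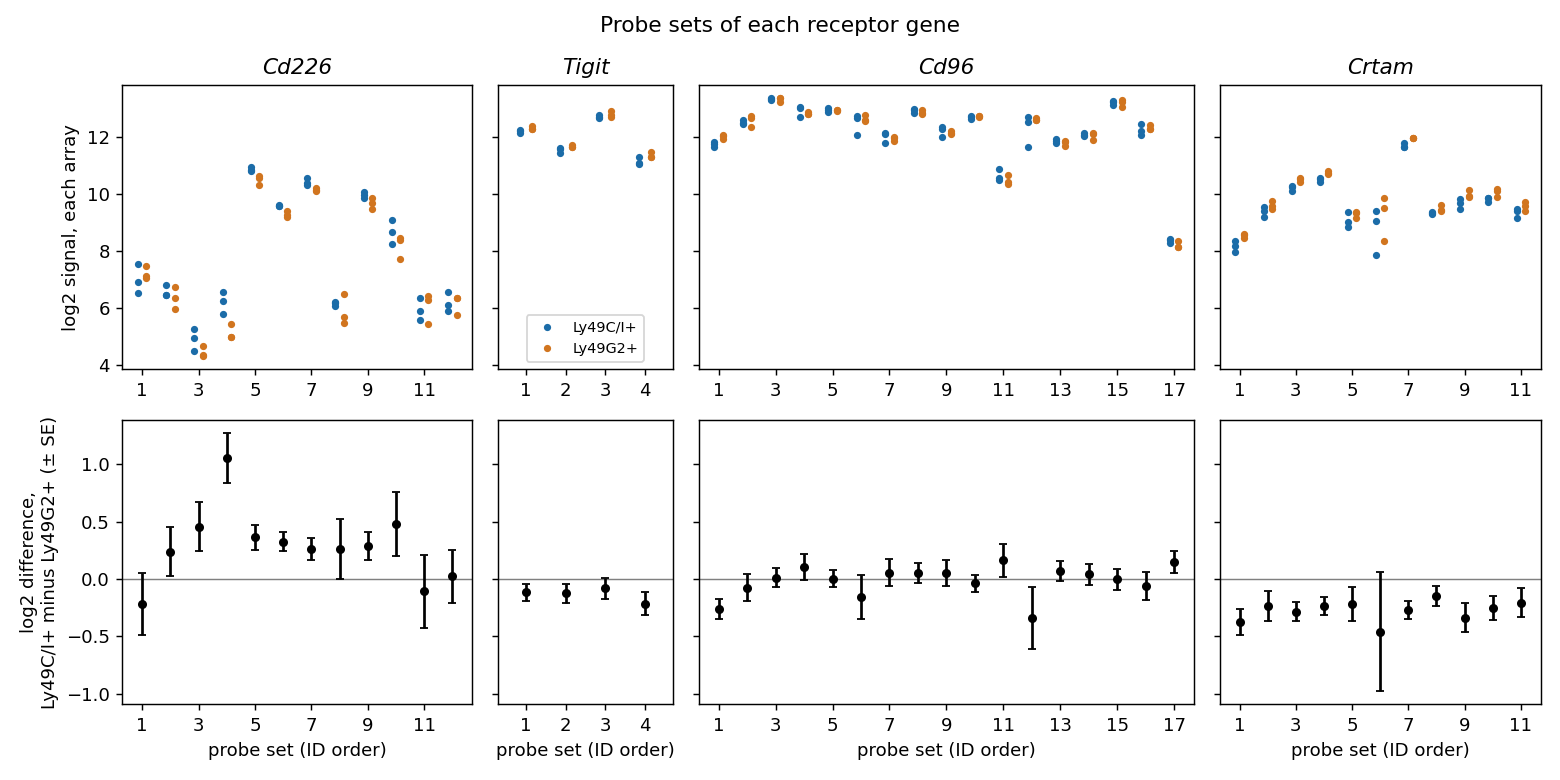
Upper panels show the log2 signal of each probe set of Cd226, Tigit, Cd96 and Crtam, with a point for each of the 3 Ly49C/I+ arrays (left of each pair) and the 3 Ly49G2+ arrays (right); lower panels show the difference, Ly49C/I+ minus Ly49G2+ (log2, ± limma SE). All 11 Crtam and all 4 Tigit probe sets lie below 0, the 17 of Cd96 lie on both sides, and the probe sets of Cd226 spread from 4.66 to 10.68 in mean signal.

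Some markers of T cells were, like Crtam, higher in Ly49G2+ cells. Of 13 T cell markers measured, 4 were called higher in Ly49G2+ cells (Cd3e, Cd3d, Cd3g and Cd8a), against 3.72% of all genes. None was called higher in Ly49C/I+ cells, against 6.16% of all genes. The other 9 did not pass. At an unadjusted limma p under 0.05 there were 5, the same 4 and Cd6 toward Ly49C/I+ cells, against 23% of all genes. Their mean log2 signal was 7.85 to 7.94 on Ly49C/I+ arrays and 8.33 to 8.36 on Ly49G2+ arrays, and their summed linear signal was 10261 to 10554 on Ly49C/I+ and 12897 to 13248 on Ly49G2+ arrays. Cd3e, a chain of the T cell receptor complex, was 4.69-fold higher in Ly49G2+ cells, whereas Cd4, Cd8b1 and Cd5 averaged 6.25, 6.24 and 6.44 in Ly49C/I+ cells, against 6.16, 6.31 and 6.52 in Ly49G2+ cells, not far above the arrays' lower quartile of 5.82 to 5.86. Among brighter markers, Thy1, Cd28 and Lat averaged 12.45, 10.89 and 10.05 in Ly49C/I+ cells, against 12.54, 10.95 and 9.95 in Ly49G2+ cells, and did not pass (limma adjusted p = 0.254, 0.461 and 0.243). Thy1, the brightest of the list, weighed most in the summed linear signal. The T cell receptor genes Trac and Trbc1, also on the list, were not analysed here. CRTAM, DNAM-1, TIGIT and CD96 all occur on T cells too, and the part of T cell transcripts in these differences was not tested.

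Of the other marker lists, 2 of 10 myeloid and dendritic markers were higher in Ly49G2+ cells (Cd14 and Ly6g), 1 of 5 type 1 innate lymphoid markers was higher in Ly49C/I+ cells (Cxcr6), and 0 of 6 B cell markers passed, where 6.16% of all genes were called toward Ly49C/I+ and 3.72% toward Ly49G2+ cells. At an unadjusted limma p under 0.05 there were 4 myeloid and dendritic markers (Zbtb46 and Siglech besides, all toward Ly49G2+ cells), 3 innate lymphoid markers (Cxcr6 and Inpp4b toward Ly49C/I+ and Il7r toward Ly49G2+ cells) and 1 B cell marker (Cd79b, toward Ly49G2+ cells), against 23% of all genes. Ly6g averaged 5.20 in Ly49C/I+ cells, against 5.44 in Ly49G2+ cells, below the lower quartile of all probe sets. The summed linear signal of the myeloid list was 1901 to 2022 on Ly49C/I+ arrays and 1981 to 2060 on Ly49G2+ arrays. That of the innate lymphoid list was 3272 to 3386 on Ly49C/I+ arrays and 3058 to 3233 on Ly49G2+ arrays, and that of the B cell list was 359 to 394 on Ly49C/I+ arrays and 360 to 397 on Ly49G2+ arrays. The part of these cells in the differences was not tested.

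Cd226, the gene of the activating receptor DNAM-1, had log2 signals of 7.60, 7.71 and 7.79 in Ly49C/I+ replicates 1 to 3, against 7.59, 7.22 and 7.42 in the Ly49G2+ replicates. The subsets did not overlap, but the nearest arrays, replicate 1 of each, were only 0.00083 apart. The mean was 7.70 ± 0.096 in Ly49C/I+ cells, against 7.41 ± 0.19 in Ly49G2+ cells (SD, n = 3 each). The difference of 0.29 ± 0.088 (SE) corresponded to 1.22-fold, with a 95% confidence interval of 1.06-fold to 1.40-fold, and did not pass (limma p = 0.00908, adjusted p = 0.0747, exact permutation p = 0.1, the smallest possible here). Its size exceeded that of 95.4% of all genes, and its spread among Ly49G2+ arrays was the widest of the 4 receptors. Without Ly49G2+ replicate 1 the difference was 0.38 and passed (limma adjusted p = 0.0189), and without Ly49G2+ replicate 2 it was 0.19 (adjusted p = 0.155). The authors' deposited table gives Cd226 a ratio of 1.25, Ly49C/I+ over Ly49G2+, with p = 0.0666.

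The probe sets of Cd226 fell into bright and dim ones. The 5 above the median of all probe sets (positions 5, 6, 7, 9 and 10 by ID) all had a higher mean in Ly49C/I+ cells, with differences from 0.26 to 0.48. Averaged, these 5 read 9.78, 9.91 and 9.99 in Ly49C/I+ cells, against 9.71, 9.37 and 9.57 in Ly49G2+ cells, so that the subsets did not overlap. This split was made after the values were seen and is a description. The other 7 had mean signals between 4.66 and 7.09, and their differences ran from -0.22 to 1.06. The largest, at position 4, read 6.24, 6.54 and 5.79 in Ly49C/I+ cells, against 4.99, 4.99 and 5.42 in Ly49G2+ cells, near or below the lower quartile of all probe sets, 5.84. At an unadjusted limma p under 0.05 there were 4 Cd226 probe sets, positions 4 to 7, all higher in Ly49C/I+ cells, against 7.39% of all probe sets in that direction. The median over the 12 probe sets gave Cd226 a difference of -0.06 (limma adjusted p = 0.873), taken as the median of each array's 12 values. By contrast, 10 of the 12 probe sets had a higher mean in Ly49C/I+ cells, the median of the 12 differences was 0.28, and the mean difference was 0.34 over the 5 bright and 0.25 over the 7 dim probe sets. The dim mean drew most on positions 4 and 3 (1.06 and 0.46), both below the lower quartile. Differences of the other dim ones ran from -0.22 to 0.26. Averaged, the 7 read 6.03, 6.14 and 6.21 in Ly49C/I+ cells, against 6.08, 5.67 and 5.88 in Ly49G2+ cells, so that the subsets overlapped. The sign of Cd226 turned only in the median taken per array, among the 18 alternatives. Averaged over the 10 probe sets above the lower quartile, Cd226 read 8.042, 8.105 and 8.237 in Ly49C/I+ cells. Its Ly49G2+ values there were 8.185, 7.694 and 7.928, so that the subsets overlapped.

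Tigit, an inhibitory receptor gene, had log2 signals of 11.89, 11.90 and 11.91 in Ly49C/I+ replicates 1 to 3, against 12.02, 12.10 and 11.98 in the Ly49G2+ replicates. Each Ly49C/I+ array lay below each Ly49G2+ array by at least 0.070. The difference was -0.13 ± 0.047 (SE), 1.10-fold toward Ly49G2+ cells, and did not pass (limma p = 0.0175, adjusted p = 0.113, exact permutation p = 0.1). It exceeded the size of 80.0% of all differences. All 4 Tigit probe sets had a lower mean in Ly49C/I+ cells, by -0.21 to -0.08. Of the 4, 0 had an unadjusted limma p under 0.05, against 5.24% of all probe sets toward Ly49G2+ cells. In 2 of the 4 every Ly49C/I+ array lay below every Ly49G2+ array, against 8.47% of all probe sets. Without Ly49G2+ replicate 1 or 2 the Tigit difference was -0.14 or -0.10 and did not pass (limma adjusted p = 0.203 and 0.244). With a variance trend and robust moderation Tigit passed (limma adjusted p = 0.0144). The authors' deposited table gives Tigit a ratio of 0.906, Ly49C/I+ over Ly49G2+, with p = 0.0291.

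Cd96 had log2 signals of 12.09, 12.11 and 12.22 in Ly49C/I+ cells, against 12.19, 12.07 and 12.20 in Ly49G2+ cells. The subsets overlapped, and the difference of -0.01 ± 0.054 (SE) had a 95% confidence interval of -0.13 to 0.11, or 0.911-fold to 1.08-fold (limma adjusted p = 0.922). Without Ly49G2+ replicate 1 or 2 it was 0.0062 or -0.054 (limma adjusted p = 0.973 and 0.637). With the median over probe sets it was -0.17, outside that interval, and did not pass (limma adjusted p = 0.550). Only 11.9% of all genes had a smaller difference. The authors' deposited table gives Cd96 a ratio of 1.01, Ly49C/I+ over Ly49G2+. Of its 17 probe sets 10 had a higher and 7 a lower mean in Ly49C/I+ cells.

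The first Cd96 probe set by ID was the only one of the 17 in which the subsets did not overlap, where 18.8% of all probe sets showed no overlap. It had 11.76, 11.64 and 11.81 in Ly49C/I+ cells, against 12.07, 11.91 and 12.02 in Ly49G2+ cells (limma adjusted p = 0.300). At positions 6 and 12, Ly49C/I+ replicate 2 read 12.05 and 11.64, below every other array of either subset at 12.57 to 12.76 and 12.51 to 12.69. Over the 4 genes, the subsets did not overlap in 3, against 27.8% of all genes.

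That Crtam passed and the others did not says nothing about how they differ from each other. The change of one receptor relative to another within an array was therefore tested for all 6 pairs with an exact two-sided permutation test, in which 3 against 3 arrays cannot give a p below 0.1. The widest was Cd226 relative to Crtam. It was -2.01, -1.92 and -1.86 in Ly49C/I+ cells, against -2.35, -2.69 and -2.43 in Ly49G2+ cells, a shift of 0.56 or 1.47-fold (exact permutation p = 0.1, adjusted over the 6 pairs 0.12). Cd226 relative to Tigit, an activating and an inhibitory receptor with shared ligands, was shifted by 0.42, with -4.30, -4.19 and -4.12 in Ly49C/I+ cells, against -4.42, -4.89 and -4.56 in Ly49G2+ cells, at the same p and adjusted p. In both pairs every Ly49C/I+ array lay above every Ly49G2+ array. Cd226 relative to Cd96 was shifted by 0.30, Cd96 relative to Crtam by 0.26 and Tigit relative to Crtam by 0.14, with the same exact p of 0.1, and Tigit relative to Cd96 by -0.12 (exact p = 0.3, adjusted 0.3). Leaving out 1 array gave Tigit relative to Cd96 shifts of -0.17 to -0.045, the smallest without Ly49G2+ replicate 2. It gave 0.46 to 0.63 for Cd226 relative to Crtam, 0.29 to 0.52 for Cd226 relative to Tigit, 0.24 to 0.37 for Cd226 relative to Cd96, 0.22 to 0.31 for Cd96 relative to Crtam and 0.11 to 0.17 for Tigit relative to Crtam. With the median over probe sets the subsets overlapped in every pair (exact p of 0.3 to 0.8). Only the shifts can be read here, since signals of different genes on an array are not comparable as levels.

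Ligands of these receptors were measured in the same cells. Of 10 genes of nectins, nectin-like proteins and their adaptor afadin, 0 passed in either direction, against 9.88% of all genes. An unadjusted limma p under 0.05 was found for 3 of the 10, against 23% of all genes. These were Cadm4 (-0.13 ± 0.047, SE), Nectin1 (-0.13 ± 0.053) and Afdn (0.14 ± 0.060), with adjusted p of 0.120, 0.175 and 0.188. Pvr, the ligand shared by DNAM-1, TIGIT and CD96, averaged 9.69 ± 0.056 in Ly49C/I+ cells, against 9.77 ± 0.058 in Ly49G2+ cells (SD, n = 3 each), a difference of -0.08 (95% confidence interval -0.20 to 0.03). Nectin2 and Cadm1 differed by -0.10 and -0.04 (adjusted p = 0.223 and 0.750). Cadm4, Nectin1, Nectin2 and Cadm1 were dim, with means of 6.18, 6.36, 6.17 and 6.57 in Ly49C/I+ cells. In Ly49G2+ cells their means were 6.31, 6.49, 6.27 and 6.61. These values lie not far above the lower quartile of all probe sets, 5.84. The median over the 10 genes was -0.07, against -0.01 over all genes tested.

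Signalling partners showed 4 calls among 24 genes, against 9.88% of all genes, with 3 higher in Ly49C/I+ and 1 higher in Ly49G2+ cells. Among 16 partners of DNAM-1, Cblb, a ubiquitin ligase that restrains activating receptors, was 1.23-fold higher in Ly49G2+ cells. It averaged 11.64 ± 0.014 in Ly49C/I+ cells, against 11.95 ± 0.012 in Ly49G2+ cells (SD, n = 3 each), a difference of -0.30 ± 0.041 (SE, limma adjusted p = 0.00135). Epb41l2, a linker of membrane proteins to the cytoskeleton, and Vav1, an exchange factor downstream of activating receptors, were 1.16-fold and 1.12-fold higher in Ly49C/I+ cells (limma adjusted p = 0.00902 and 0.0363). Syk, a tyrosine kinase, had a difference of 0.18 that did not pass (adjusted p = 0.0738). The LFA-1 chains Itgal and Itgb2 differed by -0.05 and 0.10 and did not pass (adjusted p = 0.503 and 0.175). The median of the 16 was 0.03.

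Of 4 genes of inhibitory signalling by TIGIT, Ptpn6, the phosphatase SHP-1, was 1.15-fold higher in Ly49C/I+ cells (difference 0.20 ± 0.045, SE, limma adjusted p = 0.0209). Ptpn11, the phosphatase SHP-2, differed by -0.12 and Inpp5d, the lipid phosphatase SHIP-1, by 0.07, and neither passed (adjusted p = 0.139 and 0.381). Of 4 polarity partners of CRTAM, 0 passed, against 9.88% of all genes, and 0 had an unadjusted limma p under 0.05, against 23% of all genes. With 4 genes these counts cannot be told apart from those shares. Scrib, a polarity scaffold bound by CRTAM, differed by 0.08, Prkcz by -0.10 and Cdc42 by 0.01 (adjusted p = 0.337, 0.369 and 0.938). The calls of Vav1, Ptpn6, Epb41l2 and Cblb were lost in 10, 7, 3 and 1 of 18 alternative analyses. Without Ly49G2+ replicate 1 the limma adjusted p was 0.0877 for Vav1 and 0.0646 for Ptpn6, and without Ly49G2+ replicate 2 it was 0.0668 for Vav1 and 0.0476 for Ptpn6, while Epb41l2 and Cblb passed in both. Pvrig, a further nectin receptor gene, was not analysed here.

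**Figure D3:**
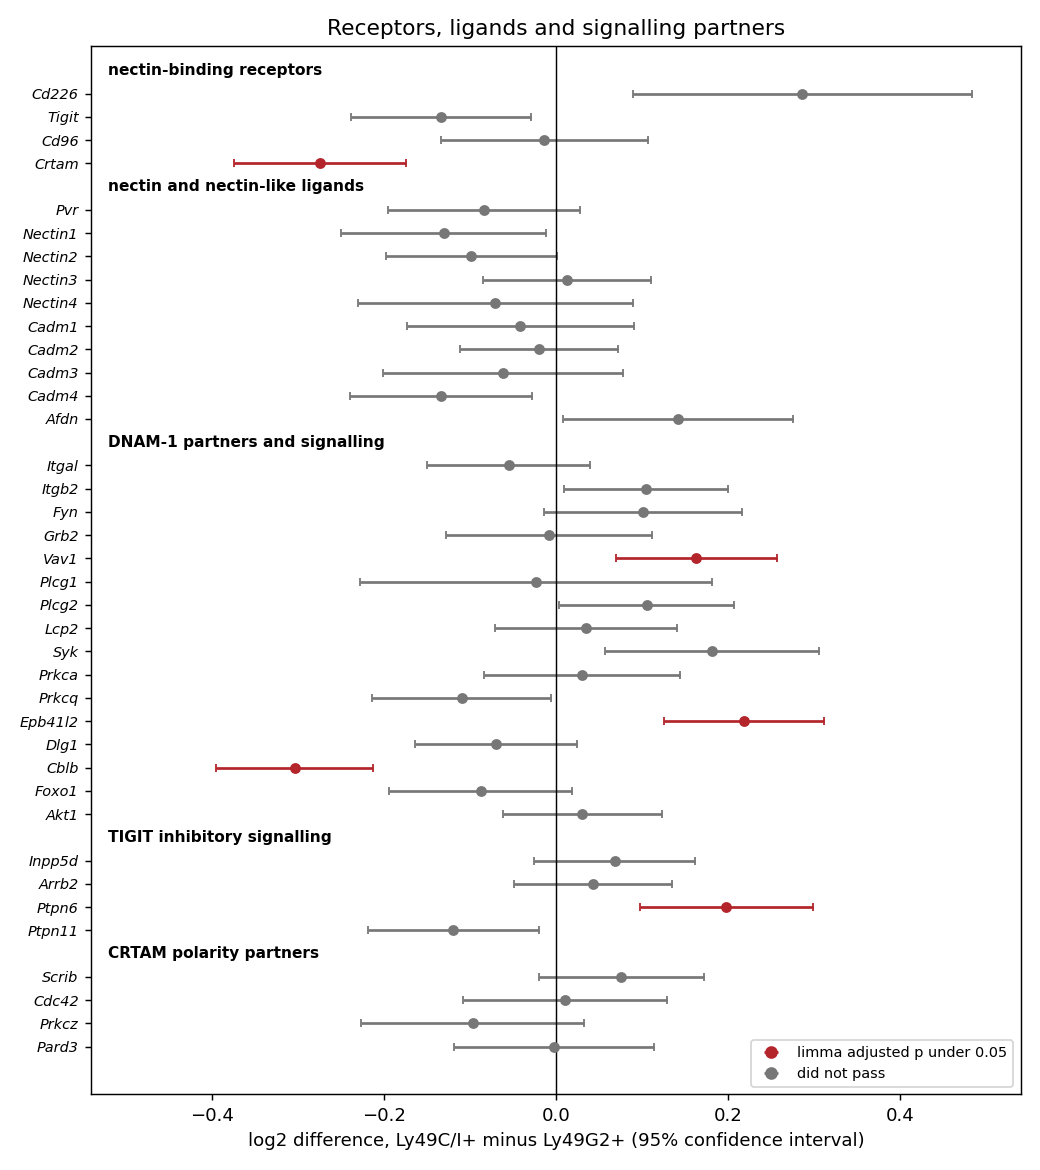
Log2 difference, Ly49C/I+ minus Ly49G2+ (horizontal axis, limma estimate with its 95% confidence interval), for the 4 receptors and 34 genes of their ligands and signalling partners. Red points passed at an adjusted p of 0.05 (Crtam, Cblb, Epb41l2, Vav1 and Ptpn6), and grey points did not.

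The genes whose values over the 6 arrays followed Crtam, Cd226 and Cd96 most closely were taken by the root mean square distance between values centred on each gene's own mean, among 9470 genes with 4 or more probe sets and a signal above the median. For Crtam these were Epas1 (distance 0.023 on the log2 scale), Aqp9 (0.025) and Flot1 (0.029), which were 1.19-fold, 1.19-fold and 1.17-fold higher in Ly49G2+ cells. For Cd226 they were Snrpd1 (0.023), H2ac8 (0.047) and Naa16 (0.048), with differences of 0.28, 0.24 and 0.23. Cd96 was closest to Cwc27, Inip and Papolg, at distances of 0.016 to 0.019. Since these genes were picked for nearness to a receptor on the same arrays, subset differences of similar size follow from the choice. With 6 arrays such likeness is a description.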

How the data were processed

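RNA of 6 samples, 3 per subset, was hybridised to Affymetrix arrays. Per the submitters' processing notes, RMA and Partek were used, with settings not given in the sources used here. The authors deposited log2 signals of 241576 exon-level probe sets. A second table, deposited by the authors, lists 35556 transcript clusters with log2 group means, an ANOVA p-value, a ratio of Ly49C/I+ over Ly49G2+, and the same ratio as a signed fold score, per the file headers. That table also holds sums of squares.

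Probe sets were joined to clusters by the unbroken run of IDs after each cluster ID (241383 placed). Run means and the authors' means correlated at r = 0.990 and 0.990 across clusters, which are not independent. Symbols came from the table and were updated through RefSeq accessions of GRCm38.p6 (21023 matched), except that Nectin4 kept its older name Pvrl4 there. Log2 values were averaged over probe sets, then clusters, per gene. Coordinates are left out because no genome build is named in the files. The R 4.3.3 package limma 3.58.1 (lmFit and eBayes, two-sided, Benjamini-Hochberg over the whole table) was run on genes and separately on probe sets. Exact permutation tests used scipy 1.17.1. The limma test was tried on simulated data, and its recovery of changes as small as those of the 4 receptors is not reported here.

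The 4 genes, gene lists and tests were chosen with earlier results of these data known. Named genes are the 4 receptors, ligand and signalling genes that passed, the 3 of lowest p in each such list and the 3 most alike per receptor (those of Tigit are not reported here), and Pvr, Nectin2, Cadm1, Syk, Itgal, Itgb2 and the markers named were added after their values were seen.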

Additional observations from a re-analysis of the deposited data

How the results depend on the processing

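The sign of the Crtam and Tigit differences was the same in all 18 alternative analyses of each. The Crtam call was lost only with the median over probe sets (-0.25), and its difference was -0.30 to -0.25 with 1 array left out (adjusted p 0.00788 to 0.0206). Tigit passed with a variance trend and robust moderation (-0.13), and was -0.16 to -0.10 with 1 array left out. Cd226 passed among genes above the median signal (0.29), with a variance trend and robust moderation (0.29), and, chosen after seeing the data, with probe sets of SD at most 0.5 (0.39). It was 0.19 to 0.38 with 1 array left out, and turned to -0.062 with the median over probe sets. With probe sets above the lower quartile only, Cd226 was 0.19 and did not pass (limma adjusted p = 0.375). Cd96 was -0.17 with the median over probe sets, turned to 0.012 in the authors' deposited table and 0.0071 with steady probe sets, and was -0.054 to 0.010 with 1 array left out. With the median over probe sets the shifts between receptors were 0.058 (Cd226 to Tigit), 0.11 (Cd226 to Cd96), 0.19 (Cd226 to Crtam), 0.047 (Tigit to Cd96, turned) and 0.080 (Cd96 to Crtam), against 0.42, 0.30, 0.56, -0.12 and 0.26 with the mean.

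Of the 34 pathway genes other than the receptors, 3 were called higher in Ly49C/I+ cells, against 6.16% of all genes. In Ly49G2+ cells 1 was called higher, against 3.72% of all genes. Both counts lie near those shares. The first count was 0 with the median, 1 with probe sets above the lower quartile, and 5 with a variance trend and robust moderation. It was 1 in the authors' deposited table, and 1 to 2 with 1 array left out. The 1 gene higher in Ly49G2+ cells became 0 with the median. Over all genes, 1321 higher in Ly49C/I+ and 797 higher in Ly49G2+ cells became 460 and 219 with the median, 554 and 344 without variance moderation, 717 and 451 in the authors' deposited table, and 859 to 1112 and 410 to 765 with 1 array left out. Deviations of same-numbered samples correlated at r = -0.076, -0.19 and -0.046, and those of differently numbered samples at -0.14 to 0.19. Taken around means of 3 arrays, these r cannot show whether same-numbered samples shared more than a number. With the replicate number as a block, pathway genes higher in Ly49C/I+ cells fell to 1 (Vav1 and Ptpn6 lost, adjusted p = 0.0915 and 0.0533), 495 of all genes were higher in Ly49G2+ cells, and the calls of the 4 receptors were unchanged (Crtam -0.27, adjusted p = 0.0186, Cd226 0.29, Tigit -0.13, Cd96 -0.01). The cause of these changes was not tested. With 3 arrays per subset, differences near the spread between arrays cannot be resolved.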
